A study of Bos taurus with 12 samples.

Results

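The genes described here build and mark the epithelium of the bovine uterus: its keratins, its tight junctions and desmosomes, the factors that keep cells epithelial, and the proteases, trafficking proteins and mucin of the apical surface. The list of 35 symbols was drawn up from general knowledge of epithelial cells and looked up by name in a table of read counts per gene. Of these, 31 had a row in the table of 13930 symbols, and all 31 passed the filter on low counts that left 10959 genes to be tested. The other 4 (PPL, GRHL2, CDS1 and MARVELD2) were not analysed here. The counts came from endometrial biopsies of grazing dairy cows (Bos taurus), classed by blood progesterone on day 4 of the estrous cycle, when the corpus luteum is forming. There were 4 classes of 3 libraries each. The very low class (titled ANE) lay under 0.25 ng/ml, the low class (LPP4) under 1.4, labelled in mg/dl, the high class (HPP4) over 2.5 ng/ml and the very high class (SO) over 20 ng/ml. The labels explain neither ANE nor SO, and they give no age, treatment or animal for a library, so each p-value reflects only how far these particular samples scatter, which may be technical.

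Epithelial cells of the uterine lumen and glands are held together near their apical edge by tight junctions, in which claudins and occludin seal or selectively open the path between cells. Below these lie adherens junctions built on E-cadherin, and desmosomes, which anchor the keratin filaments. In ruminants this epithelium faces the conceptus before and during attachment, and the surface mucin MUC1 and the permeability of the junctions are among the features that are remodelled under ovarian steroids.

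The libraries held 3772564 (very low replicate 2) to 8379489 counted reads. One library stood apart: very low replicate 1 had a mean of 11.4 log2 CPM (read counts scaled to a common library size) over the 14 smooth muscle markers. That mean was 4.53 and 5.83 in the other very low libraries, 4.51 to 5.51 in the low class, 8.94 to 10.2 in the high class and 8.94 to 9.99 in the very high class. Smooth muscle marker levels thus separated the low from the high and very high classes without overlap and ran alongside the comparison of high with low. Within the very low class they ran from 4.53 to the highest mean of the series, and their part in the results was not tested. In bulk tissue, fewer epithelial cells and less RNA per epithelial cell cannot be told apart. Main test results that rest on very low replicate 1 are given with and without it.

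Epithelial RNA was plain in 11 of the 12 libraries and scarce in 1. The 31 genes had a mean of 5.92 to 7.64 log2 CPM in those 11 and of 3.52 in very low replicate 1. In 28 of the 31 that library had the lowest value of all 12; the exceptions were KRT19, DSP and EVPL. Over all 10959 tested genes it had the lowest value for 23.1%. Set against the median of the other 11 libraries, 25 of the 31 genes stood below 25% in very low replicate 1 and 18 below 10%, with a median of 9.25%. At the other end, very low replicate 2 had the highest value of all 12 for 22 of the 31 genes, against 21.6% of all tested genes. The 2 libraries with the least and the most epithelial RNA by this measure thus belonged to the same progesterone class. The median ratio of the highest to the lowest library over the 31 genes was 23.7 within the very low class, 2.17 within the low, 1.57 within the high and 1.56 within the very high class. Over all genes the same medians were 2.16, 1.69, 1.40 and 1.38. Without very low replicate 1 the very low median was 1.90 (all genes 1.51).

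**Figure D1:**
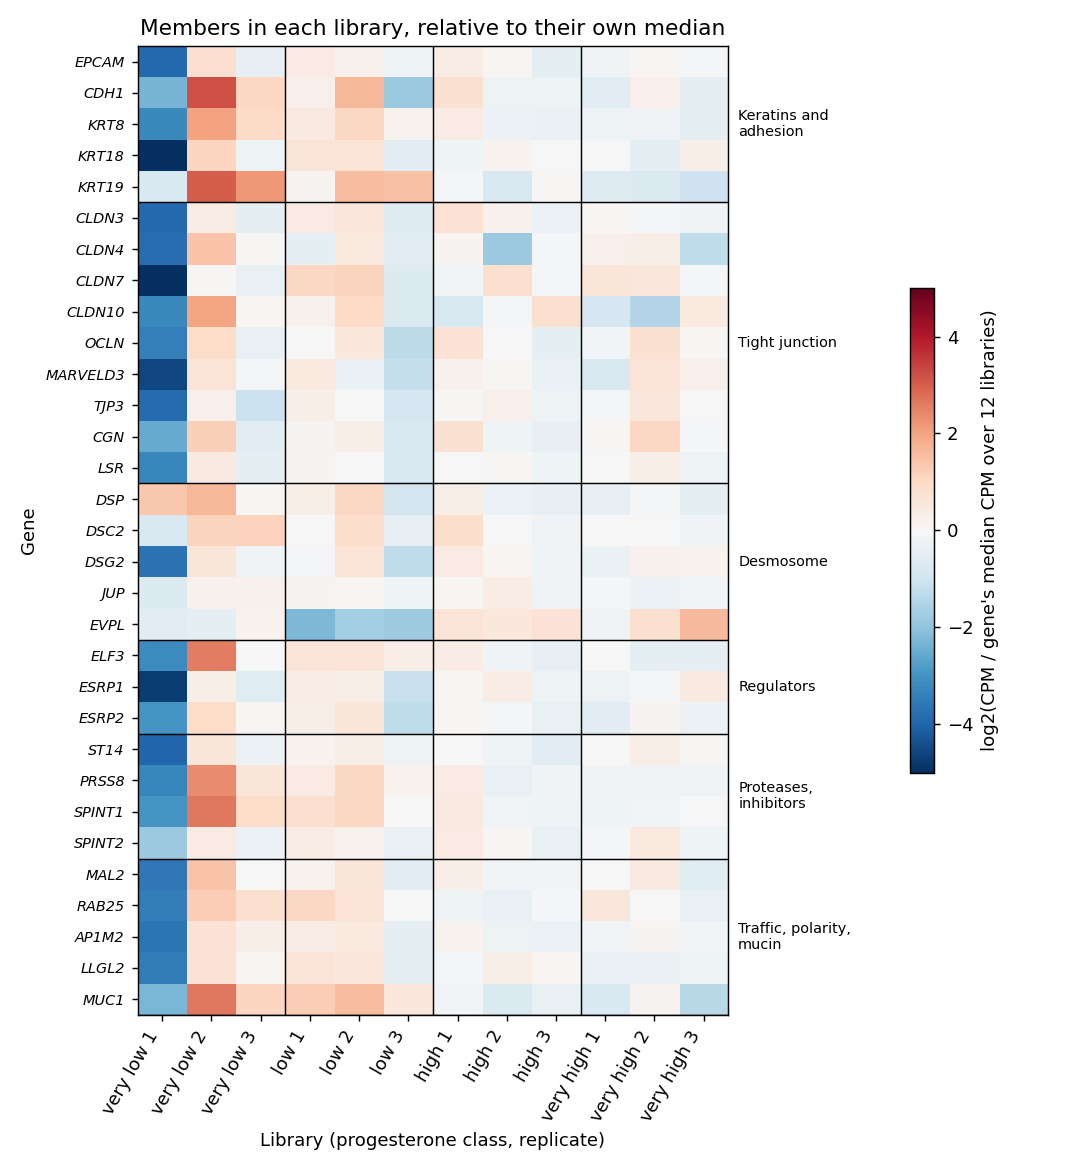
Heat map of the 31 genes (rows, grouped by role) in the 12 libraries (columns, by progesterone class and replicate). Colour gives the log2 ratio of a gene's CPM to its own median over the 12 libraries, and the column of very low replicate 1 is low for most rows while DSP, JUP, DSC2, KRT19 and EVPL keep values nearer their median or above it.

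**Figure D2:**
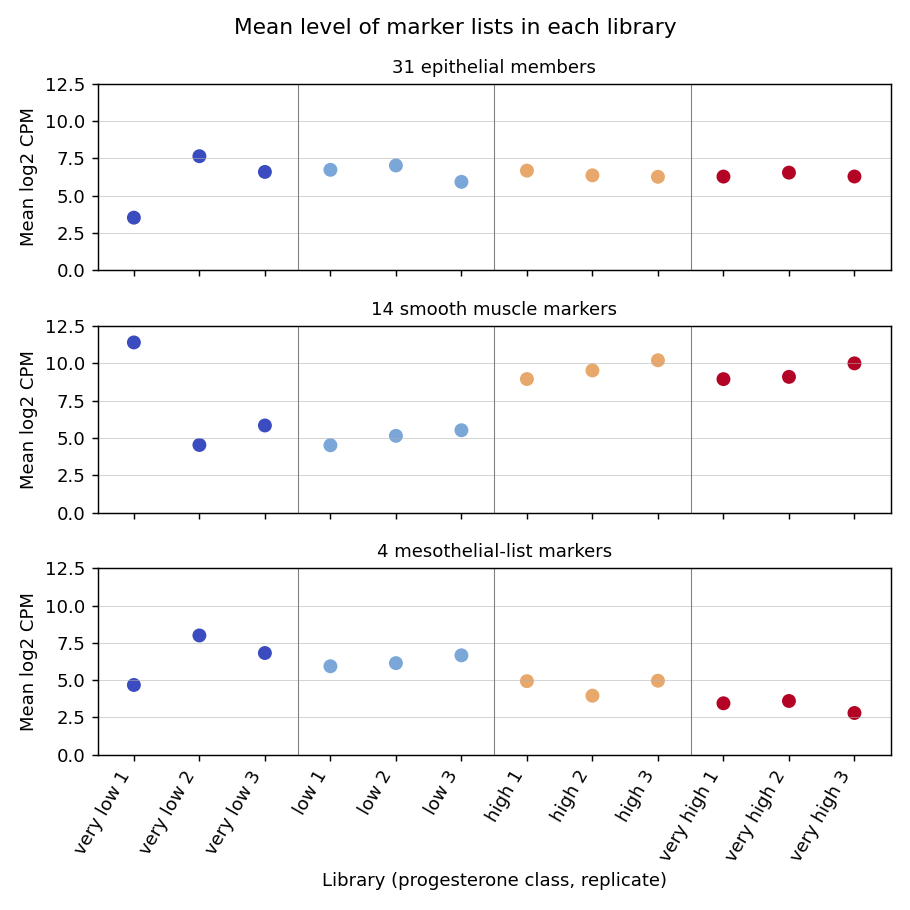
Mean log2 CPM of the 31 epithelial genes, of 14 smooth muscle markers and of 4 markers from a mesothelial list, 1 point per library, coloured by class. Very low replicate 1 has the lowest epithelial mean (3.52) and the highest smooth muscle mean (11.4), and the mesothelial-list means run from 4.68 to 7.995 in the very low class and from 2.80 to 3.61 in the very high class.

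None of the 31 genes passed an adjusted p of 0.05 in any of 4 pairwise comparisons or in the joint test of the 4 classes (edgeR quasi-likelihood test, Benjamini-Hochberg over all tested genes). In high against low, 0% of all tested genes passed, in low against very low 0%, in very high against high 0% and in the joint test 0%, so a count of 0 members there is the background. In very high against very low, 1.52% of all tested genes passed (1.11% upward and 0.411% downward) and no member did. At an unadjusted p under 0.05, 1 member (EVPL) was higher and none lower in high against low, beside 10.3% of all tested genes (4.15% higher, 6.11% lower). In very high against very low 1 member (EVPL) was higher and 3 (KRT19, DSP and MUC1) were lower, beside 23.8% of all genes (10.4% higher, 13.4% lower). In low against very low none was higher and 1 (EVPL) was lower, beside 11.6% of all genes (5.22% higher, 6.36% lower). In very high against high there was none, beside 0.794% of all genes (0.401% higher, 0.392% lower). The joint test had 3 (KRT19, DSP and EVPL), beside 17.8% of all genes. With all 12 libraries the members' shares were thus near or below those of all genes. The median log2 fold change of the members was -0.22 in high against low (all genes -0.02), -0.12 in very high against very low (all genes -0.12), 0.04 in low against very low (all genes -0.06) and -0.08 in very high against high (all genes -0.01). The median standard error of a member's fold change was 0.75 in each of the 4 comparisons, while that of all genes in high against low was 0.36. A 2-fold difference was therefore less than 2 standard errors for a typical member of that fit. Without very low replicate 1 some standard errors in high against low were smaller. They were 0.33 for EPCAM and 0.29 for RAB25 (0.75 and 0.76 with it). Those of DSP and EVPL were not smaller, at 0.49 and 0.41 (0.48 and 0.40 with it). DESeq2 on the same genes called EVPL in high against low and in low against very low, KRT19, DSP and EVPL in very high against very low, and KRT19 and EVPL in the joint test (background 2.2%, 2.67%, 13.8% and 11.9% of genes), whereas limma-voom called no member.

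Among the keratins and adhesion molecules, KRT19 had the largest fold change. KRT19 encodes a small acidic keratin of simple epithelia. It had 84.8, 1175 and 649 CPM in very low replicates 1, 2 and 3 and 158, 428 and 399 CPM in the low class. In the high class it had 138, 84.7 and 148 CPM, and in the very high class 91.0, 87.6 and 70.8 CPM. All low libraries lay above all high libraries, and very low replicate 1 stood at the level of the very high class. Class means from very low to very high were 636 ± 545, 328 ± 148, 124 ± 34.3 and 83.1 ± 10.8 CPM (SD, n = 3). For very high against very low the log2 fold change was -2.93 (SE 0.74, edgeR adjusted p = 0.066), and for high against low -1.41 (SE 0.70, edgeR adjusted p = 0.522). Without very low replicate 1 the former became -3.46 (SE 0.45) and passed (edgeR adjusted p = 0.0129, and 0.00101 to 0.467 over its 21 alternatives). The latter became -1.42 (SE 0.39) and did not pass (edgeR adjusted p = 0.174).

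KRT8, the basic keratin that pairs with KRT18 and KRT19, had 20.3, 754 and 363 CPM in very low libraries, 255, 384 and 214 CPM in the low, 249, 153 and 150 CPM in the high and 158, 164 and 137 CPM in the very high class. The 3 very high libraries lay close together, below 5 of the 6 low and very low libraries. KRT8 did not pass in very high against very low (log2 -1.31, SE 0.82, edgeR adjusted p = 0.356), and without very low replicate 1 it did (-1.87, SE 0.36, edgeR adjusted p = 0.0271; adjusted p up to 0.962 over its 21 alternatives). With the smooth muscle marker mean as a covariate KRT8 was called in the opposite direction (1.31, edgeR adjusted p = 0.0267), and with that covariate and without very low replicate 1 it was at 0.19 and not called (edgeR adjusted p = 0.962). KRT18 showed no such order, with class means of 189 ± 200, 244 ± 96.8, 189 ± 24.7 and 188 ± 46.2 CPM from very low to very high, and single values of 5.83, 402 and 160 CPM in the very low class. The difference between the fold changes of these keratins was not tested.

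EPCAM, a homophilic adhesion protein of epithelial membranes, had 21.9, 584 and 242 CPM in very low libraries, 428, 380 and 276 CPM in the low, 423, 350 and 234 CPM in the high and 285, 348 and 305 CPM in the very high class. Outside very low replicate 1 the classes overlapped throughout. CDH1, which encodes E-cadherin, had 8.31, 388 and 83.6 CPM in very low libraries, 48.5, 130 and 11.4 CPM in the low, 70.6, 34.9 and 34.5 CPM in the high and 28.03, 49.5 and 29.2 CPM in the very high class. Its spread was wide within the low class as well, at a highest-to-lowest ratio of 11.4, the largest of the 31 genes there.

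Some genes of a mesothelial marker list also ran lower in the very high class, as KRT19 did. The mesothelial list held 7 genes, of which 4 could be tested (MSLN, UPK3B, UPK1B and KRT7), and none of the 4 was at 0 in any library. Their mean was 4.68, 7.995 and 6.82 log2 CPM in very low libraries, 5.93 to 6.66 in the low, 3.96 to 4.96 in the high and 2.80 to 3.61 in the very high class. KRT7, a keratin of simple epithelia as well as mesothelium, had 22.1, 758 and 498 CPM in very low libraries, 135 to 241 CPM in the low and 29.2 to 71.7 CPM in the high class. Its very high libraries lay between 19.4 and 33.5 CPM. The mesothelin gene MSLN lay between 49.1 and 979 CPM in very low libraries and between 6.86 and 14.6 CPM in very high ones. UPK1B lay between 49.1 and 540 CPM in very low and between 1.06 and 7.23 CPM in very high libraries. UPK3B did not share that order, at 5.59 to 23.0 CPM in very low and 9.15 to 11.3 CPM in very high libraries. Which cells these values came from was not tested, nor was the part of these genes in the keratin values.

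The tight junction genes showed no class order beyond their spread. CLDN3, a sealing claudin, had 10.96, 214 and 120 CPM in very low libraries, 216, 244 and 105 CPM in the low, 267, 192 and 132 CPM in the high and 174, 153 and 145 CPM in the very high class. CLDN4 had 6.72, 252 and 97.5 CPM in very low libraries, 68.8, 130 and 62.7 CPM in the low, 101.4, 26.0 and 88.7 CPM in the high and 112, 115 and 38.1 CPM in the very high class. CLDN4 was the most variable of the 31 genes within the high class, where its libraries differed 3.90-fold. CLDN7, a claudin also found along the lateral membrane, had 12.55, 445 and 332 CPM in very low libraries, 892, 928 and 270 CPM in the low, 391, 744 and 410 CPM in the high and 657, 641 and 416 CPM in the very high class. CLDN10, whose splice forms make ion-selective pores, had 2.12, 78.0 and 21.3 CPM in very low libraries, 23.3, 39.8 and 12.0 CPM in the low, 11.4, 18.6 and 34.5 CPM in the high and 11.2, 7.23 and 28.1 CPM in the very high class. All 4 claudins were lowest in very low replicate 1, and in each the ranges of the low, high and very high classes overlapped. Occludin (OCLN) and its relative MARVELD3, the scaffolds TJP3 and cingulin (CGN), and LSR, which organises tricellular contacts, had class means in the very low class of 41.0, 10.7, 68.9, 70.6 and 83.7 CPM. In the very high class these means were 54.6, 13.7, 136.9, 92.3 and 116 CPM. No adjusted p of these 5 genes was under 0.05 in the fit without a covariate. Without very low replicate 1 the very low means were 59.3, 15.8, 99.2, 99.9 and 119 CPM in the same order. Only that of TJP3 then lay below its very high mean.

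The desmosomal genes did not move as 1 group. EVPL encodes envoplakin, a plakin that links desmosomes and keratin filaments and is best known from the cornified envelope of stratified epithelia. It had 31.3, 32.8 and 51.2 CPM in the very low class, only 9.49, 13.8 and 13.3 CPM in the low class, 72.5, 65.5 and 75.0 CPM in the high class and 40.4, 80.1 and 141 CPM in the very high class. The low libraries lay below all 9 others. EVPL was the single member with all low libraries below all very low ones (background 4.63%), none lay above (background 5.11%), and it was the single member with all high libraries above all low ones (background 10.3% of tested genes in that direction). Its log2 fold change was 2.54 in high against low (SE 0.40, unadjusted p = 6.61e-05, edgeR adjusted p = 0.31). It was -1.66 in low against very low (SE 0.39, edgeR adjusted p = 0.275) and 1.18 in very high against very low (SE 0.38, edgeR adjusted p = 0.107). EVPL rose from low to high when very low replicate 1 was left out (2.53, edgeR adjusted p = 0.0288; 0.64% of all genes rose and 0.0451% fell, 0.685% in all) and in a fit of the 6 high and low libraries alone (2.54, edgeR adjusted p = 0.0131; 0.226% of all genes rose and 0.0188% fell, 0.244% in all), with a range of 7.07e-06 to 0.986 over 25 alternatives. These values stood beside smooth muscle means of 8.94 to 10.2 log2 CPM in the high and 4.51 to 5.51 in the low class. With that mean as a covariate the EVPL fold change was 2.54 (SE 0.62, edgeR adjusted p = 0.0934), and with the covariate and without very low replicate 1 it was -0.08 (SE 1.01, edgeR adjusted p = 0.986).

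DSP encodes desmoplakin, the plakin that every desmosome needs to hold keratin, and it was not low where other epithelial genes were. It had 165, 203 and 66.0 CPM in very low libraries, 77.8, 131 and 33.6 CPM in the low, 79.7, 52.5 and 47.7 CPM in the high and 48.7, 62.4 and 47.2 CPM in the very high class. Very low replicate 1 had 264% of the median of the other libraries for DSP. With all 12 libraries, DSP alone had all very high libraries below all very low ones (background 12.2% of tested genes in that direction). No member lay above (background 13.4%). Without very low replicate 1, DSP was no longer alone in this. KRT8, for example, had 754 and 363 CPM in the other very low libraries and at most 164 CPM in very high ones. KRT19 had 1175 and 649 CPM against at most 91.0 CPM. The count without that library is not given here. For DSP the log2 fold change was -1.45 (SE 0.49, edgeR adjusted p = 0.116), and -1.34 without that library (SE 0.54, edgeR adjusted p = 0.151). JUP, the plakoglobin shared by desmosomes and adherens junctions, had 172, 319 and 326 CPM in very low libraries, 305, 297 and 241 CPM in the low, 289, 363 and 245 CPM in the high and 267, 228 and 255 CPM in the very high class. Among the 31 genes DSP, EVPL, JUP, DSC2 and KRT19 were those at more than 50% of the usual level in very low replicate 1. The desmosomal cadherins differed there: DSC2 stood at 57.6% and DSG2 at 7.18% of the median of the other 11 libraries.

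The regulators, too, were lowest in very low replicate 1, and none passed in the fit without a covariate. ELF3, an ETS-family transcription factor of epithelia, had class means of 276 ± 371, 172 ± 20.5, 114 ± 32.4 and 97.7 ± 19.9 CPM from very low to very high. ESRP1 and ESRP2, which direct epithelial splicing, had 61.4 ± 56.9 and 33.2 ± 28.7 CPM in the very low class. Their means in the very high class were 100.5 ± 25.3 and 28.6 ± 6.75 CPM (SD, n = 3). With all 12 libraries no regulator had an unadjusted p under 0.05. Without very low replicate 1, ELF3 was at -2.05 in very high against very low (SE 0.55, edgeR unadjusted p = 0.00423, adjusted p = 0.0583). ESRP1 was then at 0.15 (SE 0.43) and ESRP2 at -0.74 (SE 0.47), and none of the 3 passed.

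The membrane proteases matriptase (ST14) and prostasin (PRSS8) activate one another at epithelial surfaces and are held in check by the Kunitz inhibitors SPINT1 and SPINT2. ST14 had 17.9, 422 and 227 CPM in very low libraries, 313, 343 and 231 CPM in the low, 280, 242 and 191 CPM in the high and 278, 347 and 291 CPM in the very high class. PRSS8 was nearly constant in the very high class, at 27.1 ± 0.17 CPM (SD, n = 3), against 3.18, 159 and 47.2 CPM in the very low class. SPINT1 had 35.01 ± 2.08 CPM in the very high class and 4.95, 234 and 72.9 CPM in the very low class. With all libraries neither PRSS8 (log2 -1.36, SE 0.87, edgeR adjusted p = 0.364) nor SPINT1 (log2 -1.57, SE 0.86, edgeR adjusted p = 0.294) passed in very high against very low. Without very low replicate 1 both were called lower, PRSS8 at -1.92 (edgeR adjusted p = 0.0421; 0.0406 to 0.978 over 25 alternatives) and SPINT1 at -2.13 (edgeR adjusted p = 0.0312; 0.0108 to 0.926). SPINT2 had class means of 595.5 ± 390, 780.5 ± 189, 767 ± 208 and 789.5 ± 207 CPM, and it did not pass (edgeR adjusted p = 0.638). Its very low mean was 792 CPM without very low replicate 1. Whether the 2 inhibitors differed in their fold change was not tested. PRSS8 and SPINT1 each overlap another tested gene, KAT8 and PPP1R14D, in the RefSeq gene table, as ESRP2 does NFATC3. Since the strand setting of the counting is not given in the sources used here, reads of such pairs could not be separated.

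MUC1, the transmembrane mucin of the apical surface, resembled KRT19. It had 30.9, 947 and 320 CPM in very low libraries, 358, 459 and 223 CPM in the low, 138, 92.5 and 116 CPM in the high and 89.5, 167 and 58.6 CPM in the very high class. All low libraries lay above all high ones, and this held for 3 members in all, KRT19, RAB25 and MUC1 (background 9.68% of tested genes in that direction). For MUC1 the log2 fold change was -1.58 in high against low (SE 0.85, edgeR adjusted p = 0.549) and -2.04 in very high against very low (SE 0.86, edgeR adjusted p = 0.184). Without very low replicate 1 the latter was -2.59 and passed (edgeR adjusted p = 0.0312, and 0.028 to 0.922 over 25 alternatives). The former was then -1.59 (SE 0.48) and did not pass (edgeR adjusted p = 0.186). MUC1, PRSS8, SPINT1, ST14, ESRP1, TJP3, RAB25 and LLGL2 were chosen for display after their values were seen. RAB25, a GTPase of apical recycling, had 114, 88.5 and 55.0 CPM in the low and 47.8, 43.5 and 52.8 CPM in the high class. LLGL2, a basolateral polarity protein, was the 1 member with all very high libraries below all high ones, at 66.2, 66.7 and 73.9 against 81.6, 109 and 91.1 CPM (background 3.89% in that direction; no member lay above, background 3.2%). The adaptor subunit AP1M2 and the transcytosis protein MAL2 had class means between 59.7 and 73.5 CPM and between 80.9 and 102.5 CPM.

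**Figure D3:**
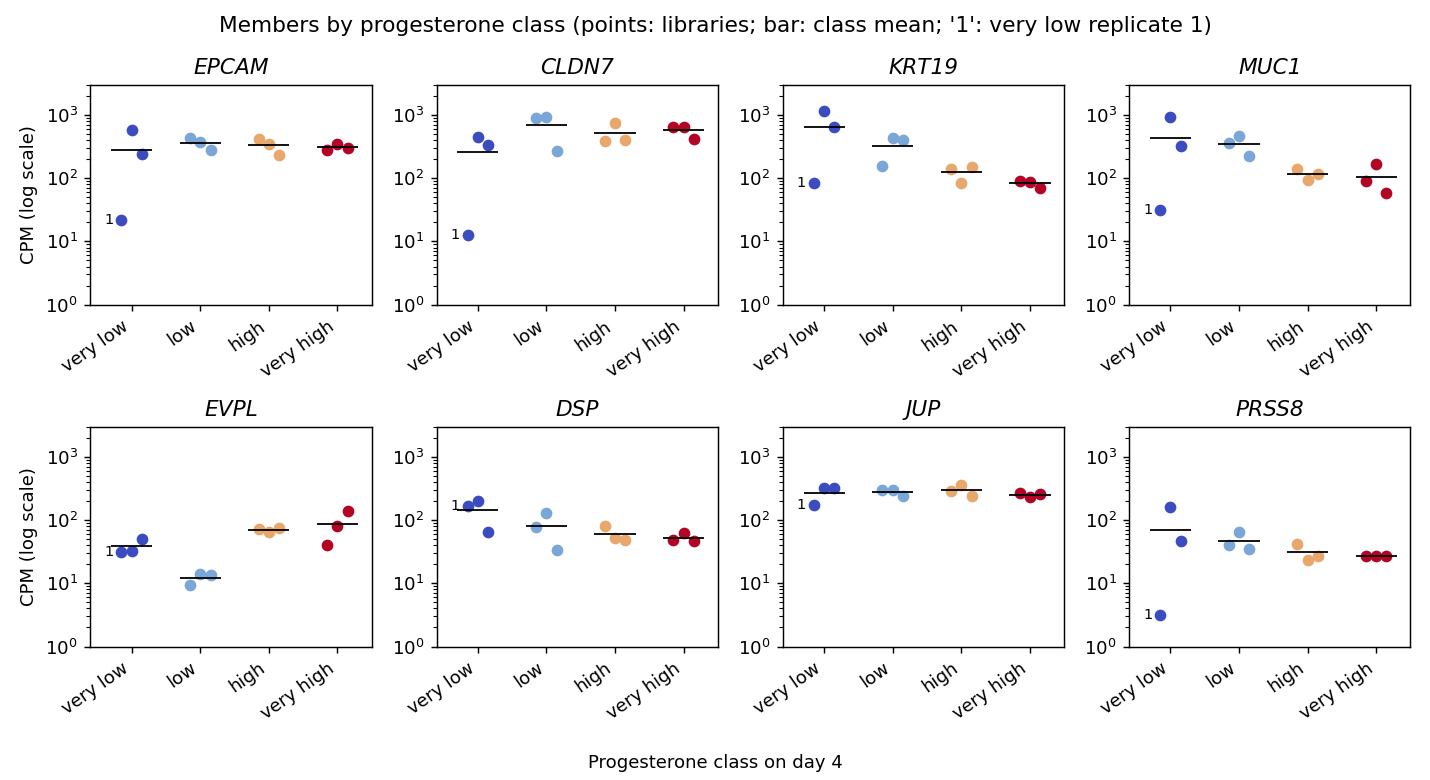
CPM on a log axis for 8 of the genes, by progesterone class, with 1 point per library, a bar at the class mean and very low replicate 1 marked by a 1. KRT19 and MUC1 are lower in every high library than in every low library, EVPL is lowest in the 3 low libraries, and the marked library is the lowest of 12 for EPCAM, CLDN7, MUC1, JUP and PRSS8 but not for KRT19, EVPL and DSP (165 CPM).

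Leaving out very low replicate 1 changed the count of calls in very high against very low from 0 to 5 of 31, all lower in the very high class: KRT19, MUC1, SPINT1, PRSS8 and KRT8. In that fit 5.79% of all tested genes were called, 3.43% lower and 2.36% higher, and the median log2 fold change of the members was -0.58 against -0.05 for all genes. The other 26 members did not pass, with log2 fold changes reaching from -2.72 for CDH1 (SE 0.86, edgeR adjusted p = 0.0842) to 1.03 for EVPL (SE 0.44, edgeR adjusted p = 0.17). The joint test without that library called KRT19 and EVPL (background 1.97%). Leaving out any 1 of the other 11 libraries gave 0 members in each of the 5 tests.

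**Figure D4:**
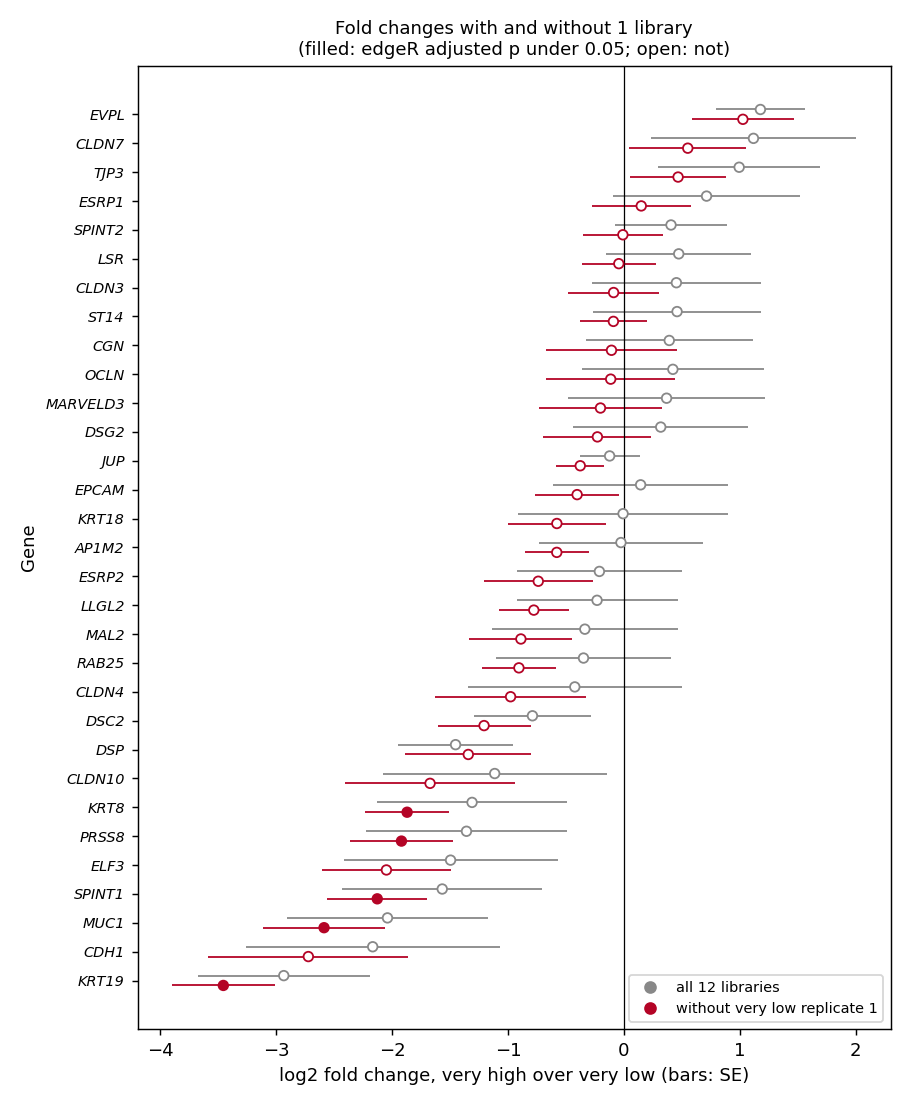
Log2 fold changes of the 31 genes for very high over very low with standard errors, in the fit of all 12 libraries (grey) and without very low replicate 1 (red). Filled points passed an edgeR adjusted p of 0.05, which only KRT19, MUC1, SPINT1, PRSS8 and KRT8 did, in the fit without that library.

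To describe how the genes varied among themselves, each was set against the mean log2 CPM of 5 anchors (EPCAM, CDH1, KRT8, KRT18 and KRT19) of the same library. PRSS8 and SPINT1 followed the anchors most closely of the 26 other genes. Over the 12 libraries the standard deviation of the log2 ratio was 0.17 for PRSS8 and 0.18 for SPINT1, although PRSS8 itself ran from 3.18 to 159 CPM and SPINT1 from 4.95 to 234 CPM. DSP also had a small standard deviation, 0.29 over 11 libraries, which rose to 1.35 with very low replicate 1, where its ratio was 3.18 against -1.94 to -1.03 elsewhere. EVPL had the largest standard deviation, 1.80 over 12 and 1.66 over 11 libraries.

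Several genes sat lower against the anchors in all 3 very low libraries, both in the library poorest and in that richest in epithelial RNA. For CLDN7 the log2 ratio was -0.51, -0.44 and 0.48 in the very low class, 1.06 to 2.23 in the low, 1.15 to 2.54 in the high and 1.85 to 2.48 in the very high class. ESRP1 had -2.26, -2.36 and -1.90 in the very low class and -0.54, -0.48 and 0.17 in the very high class. ST14 had -0.01, -0.52 and -0.07 in the very low class and 1.24, 1.44 and 1.34 in the very high class. In all, 12 of the 26 genes had ratios that lay higher in every very high than in every very low library (background 3.12% of tested genes), and 1, MUC1, lay lower (background 1.61%). The count was 18 of 26 without very low replicate 1, beside 80% of all tested genes, so the members' share was then below that of all genes. These ratios also carry the class levels of the anchors themselves. Among these, KRT19 and CDH1 had class means of 636 and 160 CPM in the very low and 83.1 and 35.6 CPM in the very high class. In high against low 7 of the 26 lay higher (background 18.5%) and 1 lower (1.33%), in low against very low 5 lay higher (1.07%) and none lower (0.447%), and in very high against high 2 lay higher (13.5%) and none lower (0.493%). In low against very low without very low replicate 1 there were 10, beside 19.4% of tested genes. The 12 in very high against very low were CLDN3, CLDN7, OCLN, TJP3, DSG2, ESRP1, MAL2, ST14, AP1M2, LLGL2, MARVELD3 and LSR.

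With the anchor mean as a covariate in the edgeR fit of all genes, 10 of the 26 rose in very high against very low and none fell, where 13.1% of all tested genes passed (8.13% rose, 5.01% fell). These calls were not made without very low replicate 1. Without it none of the 26 passed in that fit (edgeR, 10 of 26 at an unadjusted p under 0.05, smallest adjusted p = 0.0634), where 2.08% of all tested genes did (0.658% rose, 1.42% fell). The median log2 fold change of the 26 was 0.88 with that library and 0.89 without it. The anchor mean spanned 5.05 log2 units within the very low class and at most 1.21 within any other. With all 12 libraries CLDN7 rose by 2.35 log2 units (SE 0.45, edgeR adjusted p = 0.0154), ESRP1 by 1.93 (SE 0.34, edgeR adjusted p = 0.0129), TJP3 by 1.90 (SE 0.27, edgeR adjusted p = 0.00858) and ST14 by 1.52 (SE 0.19, edgeR adjusted p = 0.00652). Without a covariate their log2 fold changes were 1.12 (CLDN7), 0.71 (ESRP1), 0.995 (TJP3) and 0.46 (ST14), and none passed. With the covariate and without very low replicate 1 the fold changes were 1.53 (SE 0.81), 1.42 (SE 0.60), 1.88 (SE 0.54) and 0.94 (SE 0.29) in the same order. Over 25 alternatives the adjusted p ran from 0.00619 to 0.64 for CLDN7, from 0.00914 to 0.862 for ESRP1, from 0.00299 to 0.649 for TJP3 and from 0.00269 to 0.879 for ST14. Without very low replicate 1 and without a covariate ST14 was at -0.09. The anchors include KRT19 and CDH1, which themselves had the most negative fold changes of the 31 genes. With EPCAM, KRT8 and KRT18 alone as the covariate, a fit chosen after seeing the data, TJP3 (1.20), ESRP1 (1.02) and ST14 (0.72) rose (edgeR adjusted p of 0.025 to 0.0377), and MUC1 (-1.66), SPINT1 (-1.09) and PRSS8 (-0.85) fell (edgeR adjusted p of 0.0108 to 0.0406). Of all tested genes 5.94% rose and 4.67% fell in that fit (10.6% in all). CLDN7 was then at 1.41 (SE 0.40, edgeR adjusted p = 0.052). Leaving out very low replicate 1, that fit called TJP3 higher (1.47, SE 0.34, edgeR adjusted p = 0.0441) and SPINT1 lower (-0.83, SE 0.17, edgeR adjusted p = 0.0323), beside 5.54% of all tested genes (2.32% higher, 3.22% lower). The number that rose thus depended on the anchors and on that library. With all 12 libraries 3 genes, TJP3, ESRP1 and ST14, rose with both covariates. In high against low EVPL rose in both fits of all 12 libraries (edgeR adjusted p = 0.0359 and 0.0263) and no other of the 26 genes passed. It was at 2.41 in both without very low replicate 1 and did not pass (edgeR adjusted p = 0.0642 and 0.0603), beside 0.36% and 0.433% of all tested genes. With 5 anchors 0.456% of all genes passed there (0.429% rose, 0.0274% fell) and with 3 anchors 0.547% (0.52% rose, 0.0274% fell). In low against very low and in very high against high no member passed with either covariate, with all libraries or without very low replicate 1.

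**Figure D5:**
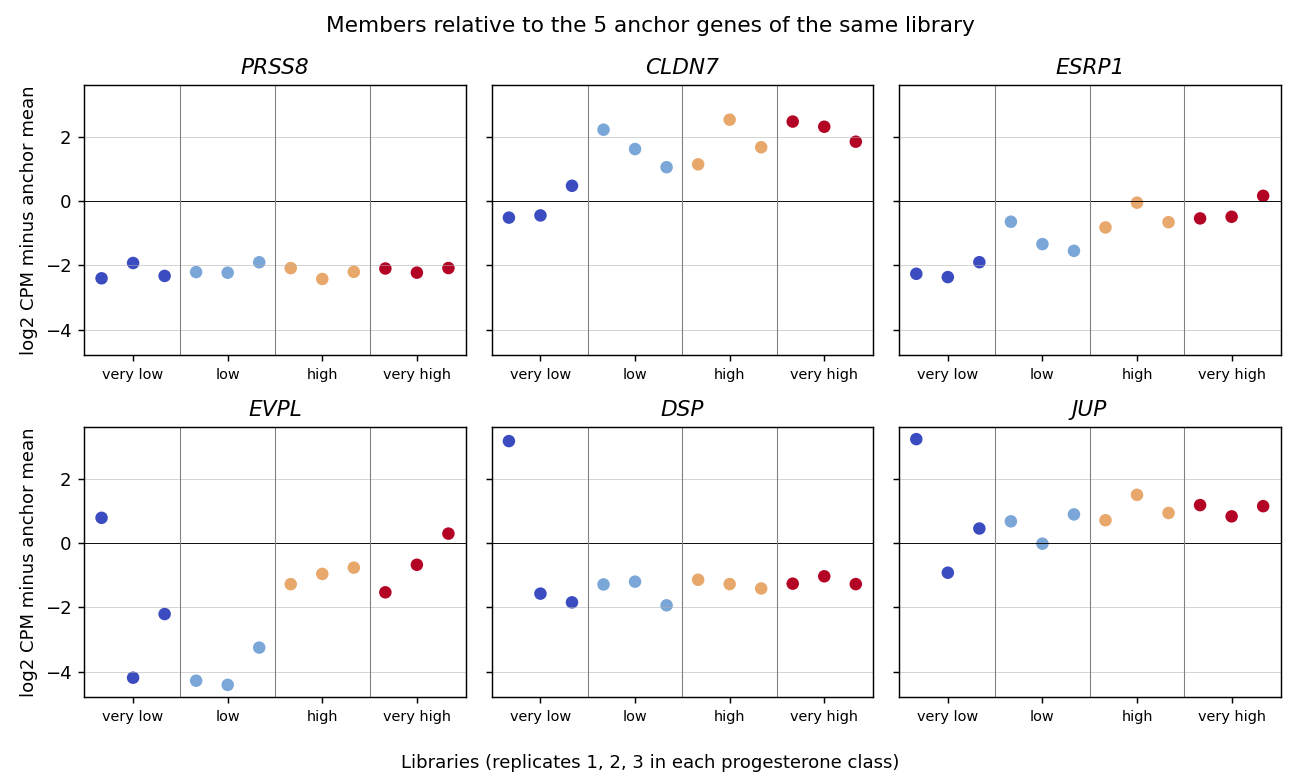
Log2 CPM of 6 genes minus the mean log2 CPM of the 5 anchors in the same library, for the 12 libraries by class, in the order of replicates 1, 2 and 3. PRSS8 lies between -2.42 and -1.90 throughout, CLDN7 and ESRP1 lie lowest in the 3 very low libraries, and EVPL, DSP and JUP each have their highest value in very low replicate 1 (0.79, 3.18 and 3.24).

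A further 80 symbols of epithelial junctions, keratins, regulators and surface proteins, older names included, were looked up in the same way, and 55 were tested. None passed in any of the 4 pairwise comparisons. In very high against very low 5 of the 55 were higher and 7 lower at an edgeR unadjusted p under 0.05 (background 10.4% and 13.4%). In high against low 0 were higher and 1 lower (4.15% and 6.11%). In low against very low 2 were higher and 1 lower (5.22% and 6.36%), and in very high against high none was. These shares were near or below those of all genes. CLDN8, a claudin of low-permeability epithelia, had 0, 12.6 and 7.54 CPM in the very low class, 48.2 to 60.6 CPM in the low, 48.6 to 383 CPM in the high class, and between 129 and 193 CPM in very high libraries (very high against very low, edgeR adjusted p = 0.0617). The hemidesmosomal integrin ITGB4 had 20.5, 263 and 247 CPM in very low libraries and between 568 and 617 CPM in very high ones (edgeR adjusted p = 0.175). KRT7 had an edgeR adjusted p of 0.0561 in the same comparison and ran the other way. By list, the median log2 fold change in that comparison was -0.12 for 13 tight junction genes, -0.33 for 7 adherens junction genes, -0.43 for 13 desmosome and keratin genes, -1.07 for 11 regulators and -0.10 for 11 surface proteins, against -0.12 for all genes. The 11 regulators were GRHL1, OVOL1, OVOL2, EHF, ELF5, KLF5, ZEB1, ZEB2, SNAI1, SNAI2 and TWIST1, and they were not split by role. At an edgeR unadjusted p under 0.05, OVOL2 was higher and EHF, ELF5 and ZEB2 were lower in that comparison. Their median therefore does not describe a shared change. The genes singled out here were chosen after their values were seen.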

How the data were processed

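Polyadenylated RNA of 12 endometrial biopsies was sequenced as paired reads from 1 equimolar pool of stranded libraries, per the labels' protocols. The authors deposited raw counts per gene symbol, neither scaled nor pooled. Per the submitters' processing notes FastQC 0.11.2, Trimmomatic 0.32 and the builds UMD3.1 and bosTau8 were used. Annotation, aligner, counting tool and strand setting were not given in the sources used here. No sequences are shown, because no sequence table was used.

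The counts were analysed with edgeR 4.0.16 in R 4.3.3: filterByExpr with a count minimum of 10, TMM scaling, and a quasi-likelihood fit of 4 class means to all 12 libraries (8 residual degrees of freedom), with Benjamini-Hochberg adjustment over all 10959 genes and a threshold of 0.05. Standard errors were taken from the fold change and its F value. CPM are TMM-scaled, and fold changes are in log2 units, the class named first divided by the other. Values of different genes were not compared, since no transcript lengths were used. DESeq2 1.42.0 and limma 3.58.1 (voom) were alternatives, as were other scalings, no filter, thinned counts, covariates, a replicate block and leaving out each library. The test was also run on simulated counts. These held no library that stood apart as very low replicate 1 did, so they do not bear on calls that turn on it.

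No 2 libraries of a class were the same within sampling noise, with chi-square values of 21.8 to 284 for each degree of freedom. All 31 genes matched the RefSeq gene table of assembly ARS-UCD2.0, used for overlaps only. The genes, lists and display rule were chosen with earlier results of these data known. The rule showed every member past the threshold, the 5 anchors, 4 claudins and the 2 members with the smallest p in each pairwise comparison.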

Additional observations from a re-analysis of the deposited data

How the results depend on the processing

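Under DESeq2 the members called numbered 1 (high against low), 3 (very high against very low), 1 (low against very low) and 2 (joint test). With the 5 anchors as covariate these were 1, 10 and 7 of 26 genes (high against low, very high against very low, joint). Of all tested genes 0.456%, 13.1% and 3.24% passed there. With 3 anchors they were 1, 6 and 2 of 26, beside 0.547%, 10.6% and 2.78% of all genes. With smooth muscle markers as covariate they were 8, 19 and 14 of 31, beside 0.338%, 16.1% and 3.71%. All calls in pairs were higher with 5 anchors and with smooth muscle markers. With 3 anchors 3 of the 6 in very high against very low were lower. The same covariates without very low replicate 1, added after seeing the data, gave 0 in every test, except 2 with 3 anchors in very high against very low. The smooth muscle mean spanned 6.87 log2 units within the very low class and at most 1.26 within any other. A fit of the compared classes alone called 1 in high against low. Leaving out 1 library gave 0 to 1 in high against low, 0 to 5 in very high against very low, 0 to 2 in the joint test and 0 in the others.

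With smooth muscle markers as covariate KRT19 (0.76) and MUC1 (1.51) changed sign in high against low, as did KRT8 (1.31), MUC1 (0.33), SPINT1 (1.25) and PRSS8 (1.45) in very high against very low. With that covariate and without very low replicate 1, EVPL (-0.083) and MUC1 (1.69) changed sign in high against low, and KRT8 (0.189), EVPL (-1.48), DSP (1.78), MUC1 (0.514), SPINT1 (0.519) and PRSS8 (0.516) in very high against very low. DSP there was at 1.12 with 5 and 0.175 with 3 anchors without that library. PRSS8 was above 0 under limma-voom (0.061), with the 5 anchors (0.12, and 0.0732 without that library) and between -1.92 and 0.13 over fits without 1 library. Of 48 fold changes of the 12 genes shown by rule, 39 changed sign in at least 1 alternative. The cause was not tested. The replicate block called 0 members in each of the 5 tests. Same-numbered libraries did not deviate together (correlations -0.30 to 0.29 over 18 pairs, and -0.39 to 0.37 over 36 pairs of different numbers). These values showed no pairing by number, though they cannot exclude one. DESeq2 size factors, no filter and thinned counts changed no call of a member.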
